A study of Danio rerio with 370 samples.

Results

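Among cells sorted as newborn neurons from the adult zebrafish forebrain, 12 carried reads of at least 2 of 3 oligodendrocyte lineage genes. These genes were *olig2*, *olig1* and *sox10*, and the 12 cells are described here. They came from the NBN gate of a *her4.1*:mcherry, *elavl3*:gfp double reporter line, in which the promoter of the radial glia gene *her4.1* drives mCherry and that of the neuronal gene *elavl3* drives GFP. The NBN gate took cells low in mCherry and positive for GFP, the RG gate took cells high in mCherry and negative for GFP, and the MN gate took cells negative for mCherry and positive for GFP. A cell in the NBN gate is thus defined by fluorescence, in part from mCherry protein that outlasts its transcript, and not by its RNA. Cells were dissociated from the telencephalon and anterior diencephalon of 6 adult fish, all of this line. Of 370 cells sequenced, 264 passed the quality filters: 164 of the NBN gate, 73 of the RG gate and 27 of the MN gate. A cell was called OPC-like, after oligodendrocyte precursor cells, if it passed these filters in the NBN gate and had at least 1 read of at least 2 of the 3 genes. That held for 12 of the 164 cells, a share of 7.32% (exact binomial 95% interval 3.84% to 12.4%, counting error only). The other groups were the 152 remaining NBN gate cells and the 73 RG gate cells.

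Oligodendrocyte precursor cells are the dividing progenitors from which the myelinating oligodendrocytes of the vertebrate brain arise, and they persist in the adult. The basic helix-loop-helix factors Olig2 and Olig1 and the SRY-box factor Sox10 act in specifying and maintaining the lineage. In mammals the precursors also carry the receptor Pdgfra and the proteoglycan Cspg4 (NG2), receive synapses from neurons through glutamate and GABA receptors, and lose these features as they turn on myelin genes such as *Mbp*.

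The OPC-like cells were spread over the fish. Fish 1 gave 1 of its 27 NBN gate cells, fish 2 gave 2 of 28, fish 3 gave 2 of 28, fish 4 gave 4 of 28 and fish 6 gave 3 of 27. Fish 5 gave 0 of 26, which allows a share of up to 11.5%. By their labels, fish 1 to 5 make up 1 batch and fish 6 another, so members came from both batches.

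The reads of the 3 genes chose the cells and are given as a description. Fish 1 cell 1 had 460, 551 and 146 reads of *olig2*, *olig1* and *sox10*, in that order, and fish 2 cell 2 had 997, 177 and 249. Fish 3 cell 2 had 448, 432 and 265, and fish 4 cells 1, 3 and 4 had 713, 88 and 333, 348, 156 and 246, and 958, 461 and 227. Fish 6 cells 1, 2 and 3 had 253, 266 and 244, 58, 184 and 54, and 285, 502 and 23. These 9 cells held all 3 genes, each by at least 23 reads. Fish 2 cell 1 had 469 and 568 reads of *olig2* and *olig1* and 0 of *sox10*. The other two cells were far lower, with 3, 6 and 0 reads in fish 3 cell 1 and 1, 1 and 0 in fish 4 cell 2. A rule of at least 10 reads of 2 genes would keep 10 cells, and a rule of all 3 genes would keep 9.

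**Figure D1:**
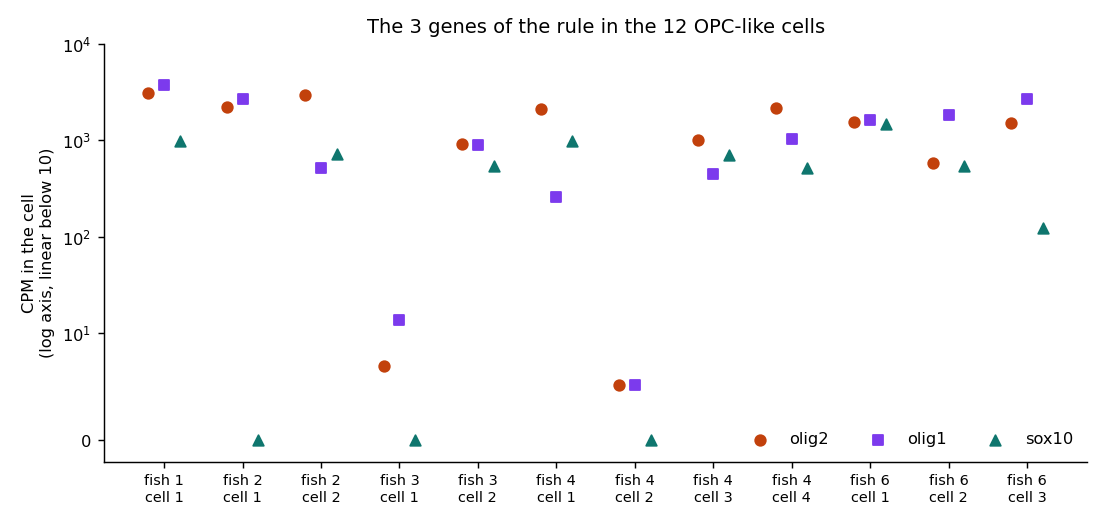
Reads out of every 1000000 of the cell (CPM) of *olig2*, *olig1* and *sox10* (y axis, log scale, linear below 10) in each of the 12 OPC-like cells (x axis). Fish 3 cell 1 and fish 4 cell 2 lie at 13.8 CPM or less for every gene, and *sox10* is at 0 in these and in fish 2 cell 1.

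Just outside the rule, 4 remaining NBN gate cells had reads of 1 of the 3 genes, and in each it was *olig2*. One cell of fish 2 had 498 *olig2* reads, and 3 cells of fish 6 had 1, 1 and 2. In the RG gate, a cell of fish 4 had 362 *olig2* and 103 *sox10* reads, another cell of fish 4 had 359 *olig2* reads, and a cell of fish 5 had 1 *sox10* read. None of the 27 MN gate cells, all of fish 6, had a read of any of them.

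The label was checked against the rest of each cell's RNA, and it did not hold for all 12. Fish 3 cell 1 and fish 4 cell 2 had 5 and 0 reads of *aplnra* and 4 and 0 of *FABP7*. Their summed reads of 52 neuronal genes came to 45039 and 30224 CPM, against 5469 to 11736 CPM in the other 10 cells. Over the 9743 genes tested below, their log2(CPM + 1) profiles correlated at r = 0.380 and 0.326 with the mean of the 10 and at r = 0.580 and 0.490 with the mean of the remaining NBN gate cells. These correlations are across genes within a cell and carry no test. By both measures these 2 cells were nearer to the remaining NBN gate cells than to the other 10. Some results are given below with only the 10 cells as well. Reads of the rule genes picked those 10, so such results are a description and no further support.

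Fish 2 cell 1 also stood apart. It had 1097 genes with a read, the fewest of the 12, and 5.18% mitochondrial reads, the most. It carried 2009 reads of *FABP7*, 1155 of *TRAF4*, 709 of *SEMA5A* and 332 of *cd9b*, but 0 of *aplnra*, *CD82*, *SLC1A2* and *ELAVL3*. Its profile correlated at r = 0.403 with the other cells of the 10 and at 0.450 with the remaining NBN gate cells. The other 9 cells each correlated best with one another, at r = 0.434 to 0.515, against 0.366 to 0.422 with the remaining NBN gate cells and 0.275 to 0.331 with the RG gate cells. The fish 2 cell just outside the rule, with 498 *olig2* reads, also correlated best with the 10 cells, at r = 0.392. Its r was 0.264 with the remaining NBN gate cells, in whose sums it stays, and 0.224 with the RG gate cells.

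Reads per cell ran from 100015 to 485314 in OPC-like cells and from 38724 to 569318 in remaining NBN gate cells, so the ranges overlapped throughout. The median was 276600 reads per OPC-like cell, 270898 per remaining NBN gate cell and 211548 per RG gate cell. The mean of the differences between OPC-like and remaining NBN gate cells within fish was 13608 ± 46340 reads (SD, n = 5 fish, exact two-sided sign-flip permutation p = 0.5625). The OPC-like cells had a median of 2312 genes with a read, against 1590 in the remaining NBN gate cells. The mean difference of 554 ± 352 genes (SD, n = 5) was in the same direction in 5 of 5 fish, and its exact permutation p of 0.062 is the smallest that 5 fish allow. With every cell thinned to 30000 reads the medians were 1771 and 1273.5 genes, and the difference was positive in 4 of 5 fish (exact permutation p = 0.125). In all, 10435 genes had a read in at least 1 of the 12 cells, 4433 of these in exactly 1 cell and 70 in every cell.

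To compare all other genes, the reads of each group were summed within each fish, and 9743 genes were tested on these sums with edgeR (quasi-likelihood, Benjamini-Hochberg adjustment). There were 5 sums of OPC-like cells, of 1 to 4 cells and 146635 to 1324599 reads, 6 sums of remaining NBN gate cells, of 2776585 to 11014404 reads, and 6 of RG gate cells, of 1539845 to 5473055 reads. In such sums, fewer cells with a gene and less RNA of it per cell cannot be told apart, so cells with a read are given as well. Called means an adjusted p under 0.05.

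Against the remaining NBN gate cells, 67 genes were higher in OPC-like cells (0.688% of those tested) and 1393 were lower (14.3%). Few cells stand behind many of these calls: 13 of the 67 genes had reads in at most 2 OPC-like cells, and 1133 of the 1393 were at 0 in all 5 OPC-like sums. Of the 67 genes, 37 had reads in at least 6 OPC-like cells and 30 were higher in 5 of 5 fish. The balance of the calls also rested on the scaling. The median log2 fold change of all genes tested was −1.57, and it was −0.59 with DESeq2's size factors in edgeR (RLE), under which 33 genes were higher and 37 lower. Without fish 1, 2, 3, 4, 5 or 6 in turn, 12, 17, 23, 7, 13 and 10 genes were called higher and 82, 45, 288, 116, 145 and 44 lower, the last of each being the result within the batch of fish 1 to 5.

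Receptors and their ligands come first. *aplnra* (ENSDARG00000002172), a receptor of the apelin peptides, had 3628, 3175, 2047, 3862 and 3667 CPM in the OPC-like sums of fish 1, 2, 3, 4 and 6. In the remaining NBN gate it was at 0 in 5 sums and at 163 CPM in fish 2, and in the RG gate it had 1 read in all. A read was found in 10 of 12 OPC-like cells, 1 of 152 remaining NBN gate cells and 1 of 73 RG gate cells, and the groups did not overlap. Its log2 fold change against the remaining NBN gate cells was 5.84 ± 1.61 (SE, edgeR adjusted p = 0.0378). The only remaining NBN gate cell with it was the fish 2 cell just outside the rule, which had 1134 *aplnra* reads, and without the 4 cells with a read of 1 rule gene *aplnra* was at 0 in all remaining NBN gate sums (adjusted p = 6.9e-09, range over alternatives 6.9e-09 to 0.0916). That cell also had 847 reads of *aplnrb*, 1051 of *cd9b*, 595 of *CD82*, 1015 of *cd59b* and 2046 of *SEMA5A*. Without the 4 cells the related receptor *aplnrb* had an edgeR adjusted p of 0.000798 (range over alternatives 0.000134 to 0.427). *CD82*, *CXCL12* and *cd59b*, all described below, had adjusted p of 3.9e-09, 3.0e-09 and 5.3e-05 (ranges over alternatives 3.9e-09 to 0.0581, 3.0e-09 to 0.0719 and 2.9e-05 to 0.119). The rule genes set these 4 cells aside as they chose the members, so the values without them are a description and no further support.

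With all remaining NBN gate cells, *aplnrb* (ENSDARG00000036670) had 505, 393, 146, 672 and 988 CPM in the OPC-like sums, against 0 to 122 CPM in the remaining NBN gate sums. It did not pass the test (log2 fold change 3.75 ± 1.81 SE, edgeR adjusted p = 0.151), and it did with the fish as a replicate block (adjusted p = 0.0413, range over alternatives 0.000134 to 0.427). *CXCL12* (ENSDARG00000037116), which encodes a chemokine ligand that guides migrating cells, had 3976, 1077, 1361, 1925 and 1386 CPM, against 0 to 82.1 CPM in the remaining NBN gate sums. It was higher in OPC-like cells by a log2 fold change of 5.47 ± 1.35 (SE, edgeR adjusted p = 0.0211), with reads in 11 of 12 OPC-like and 5 of 152 remaining NBN gate cells. These 2 genes and *aplnra* belong to a list of 10 apelin and chemokine genes. Of these 5 were tested, 2 were higher and 0 lower, beside 0.688% and 14.3% of all genes tested. The 3 genes also stand in the study's own table of OPC cluster genes, a list chosen on these cells, so the count is no independent evidence.

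Among tetraspanins, membrane proteins that organise other proteins into surface domains, 3 of 16 tested were higher in OPC-like cells and 0 were lower, beside 0.688% and 14.3% of all genes tested. *CD82* (ENSDARG00000019098) had 2080, 3612, 1494, 4460 and 3053 CPM in the OPC-like sums, against 0 to 85.7 CPM in the remaining NBN gate sums (log2 fold change 6.06 ± 1.28 SE, edgeR adjusted p = 0.00887). *cd9b* (ENSDARG00000016691) had 2087, 2173, 1352, 1496 and 1472 CPM, against 0 to 151 CPM (4.48 ± 1.48, edgeR adjusted p = 0.0451). *CD63* (ENSDARG00000025147), a marker of late endosomes, had 968, 2032, 624, 1565 and 2097 CPM, against 4.63 to 86.0 CPM (4.11 ± 0.86, edgeR adjusted p = 0.00825). No remaining NBN gate sum reached the lowest OPC-like sum for any of the 3. All 3 are also in the study's table of OPC cluster genes, chosen on these cells, so the count is no independent evidence. The median log2 fold change of the 16 was −0.36, beside −1.57 for all genes, and 0.69 under RLE scaling, beside −0.59. *cd59b* (ENSDARG00000089255), in mammals an inhibitor of the complement membrane attack complex, was noticed after its values were seen. It had 2121, 2882, 424, 1651 and 3237 CPM in the OPC-like sums, against 0 to 146 CPM in the remaining NBN gate sums (5.32 ± 1.79, edgeR adjusted p = 0.0457).

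Guidance and adhesion genes followed. *SEMA5A* (ENSDARG00000058821), a semaphorin that steers axons, had 2762, 3408, 2810, 3724 and 4225 CPM in the OPC-like sums, against 0.729 to 362 CPM in the remaining NBN gate sums (log2 fold change 3.97 ± 1.24 SE, edgeR adjusted p = 0.0443). Reads were in 11 of 12 OPC-like and 27 of 152 remaining NBN gate cells. *TRAF4* (ENSDARG00000003963), an adaptor of receptor signalling, had 7249, 5127, 2102, 5842 and 3299 CPM, against 15 to 246 CPM (3.76 ± 1.11, edgeR adjusted p = 0.0443). *igsf9ba* (ENSDARG00000033845), an immunoglobulin superfamily member, was the only one of these with a read in all 12 OPC-like cells, and in 34 of 152 remaining NBN gate cells. Its OPC-like sums ran from 123 to 3884 CPM and overlapped the remaining NBN gate sums, of 18 to 142 CPM (3.91 ± 1.19, edgeR adjusted p = 0.0443). With the fish as a replicate block its adjusted p was 0.100 (range over alternatives 0.000321 to 0.103). Of the 27 tested genes among 45 semaphorins, netrins and their receptors, *SEMA5A* was the only one higher, and 9 were lower, beside 0.688% and 14.3% of all genes. Under RLE scaling 1 was higher and 1 lower, and with only the 10 cells 1 was higher and 13 lower. *SEMA5A* and *TRAF4* are also among the OPC cluster genes that the study named from these cells.

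Some transcription factors other than those of the rule were also higher than in the remaining NBN gate cells. *FOXB1* (ENSDARG00000089042), a forkhead factor, had 825, 775, 242, 696 and 137 CPM in the OPC-like sums, against at most 0.360 CPM in any remaining NBN gate sum. Its fitted log2 fold change of 11.61 ± 2.26 (SE, edgeR adjusted p = 0.0036) rests on 1 read on the side of the remaining NBN gate. A read of it was found in 9 of 12 OPC-like cells, 1 of 152 remaining NBN gate cells and 1 of 73 RG gate cells. *HEY2* (ENSDARG00000013441), a target of Notch signalling, was higher by a log2 fold change of 7.85 ± 2.36 (SE, edgeR adjusted p = 0.0443), and *MKX* (ENSDARG00000075450), a homeobox factor known from tendon, by 7.09 ± 2.22 (adjusted p = 0.0443). *EPAS1* (ENSDARG00000057671), a hypoxia-inducible factor, was higher by 7.87 ± 2.22 (adjusted p = 0.041). *HEY2* and *EPAS1* had reads in 6 OPC-like cells each and *MKX* in 9. The OPC-like sums held 50.5 to 375 CPM of *HEY2*, 3.26 to 1112 CPM of *MKX* and 5.28 to 970 CPM of *EPAS1*, against at most 1.44, 8.56 and 2.88 CPM in the remaining NBN gate sums. For *MKX* the 2 groups thus overlapped, as its cells of fish 3 had 1 and 2 reads. The *EPAS1* sum of fish 4 came from 7 reads of 1 cell. These 3 genes did not pass the test against the RG gate cells, where *HEY2*, *MKX* and *EPAS1* had reads in 6, 4 and 5 cells and reached 42.1, 129 and 148 CPM in a sum (edgeR adjusted p = 0.305, 0.229 and 0.648). Of the 16 tested Notch pathway genes, *HEY2* was the only one higher than in the remaining NBN gate cells, and 4 were lower. Of all genes tested, 0.688% were higher and 14.3% lower. Under RLE scaling 0 of the 16 were higher and 1 was lower. *SYT9* (ENSDARG00000029239), a calcium sensor of vesicle release, was higher by 6.09 ± 1.41 (edgeR adjusted p = 0.0171), with reads in 11 of 12 OPC-like, 6 of 152 remaining NBN gate and 1 of 73 RG gate cells.

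**Figure D2:**
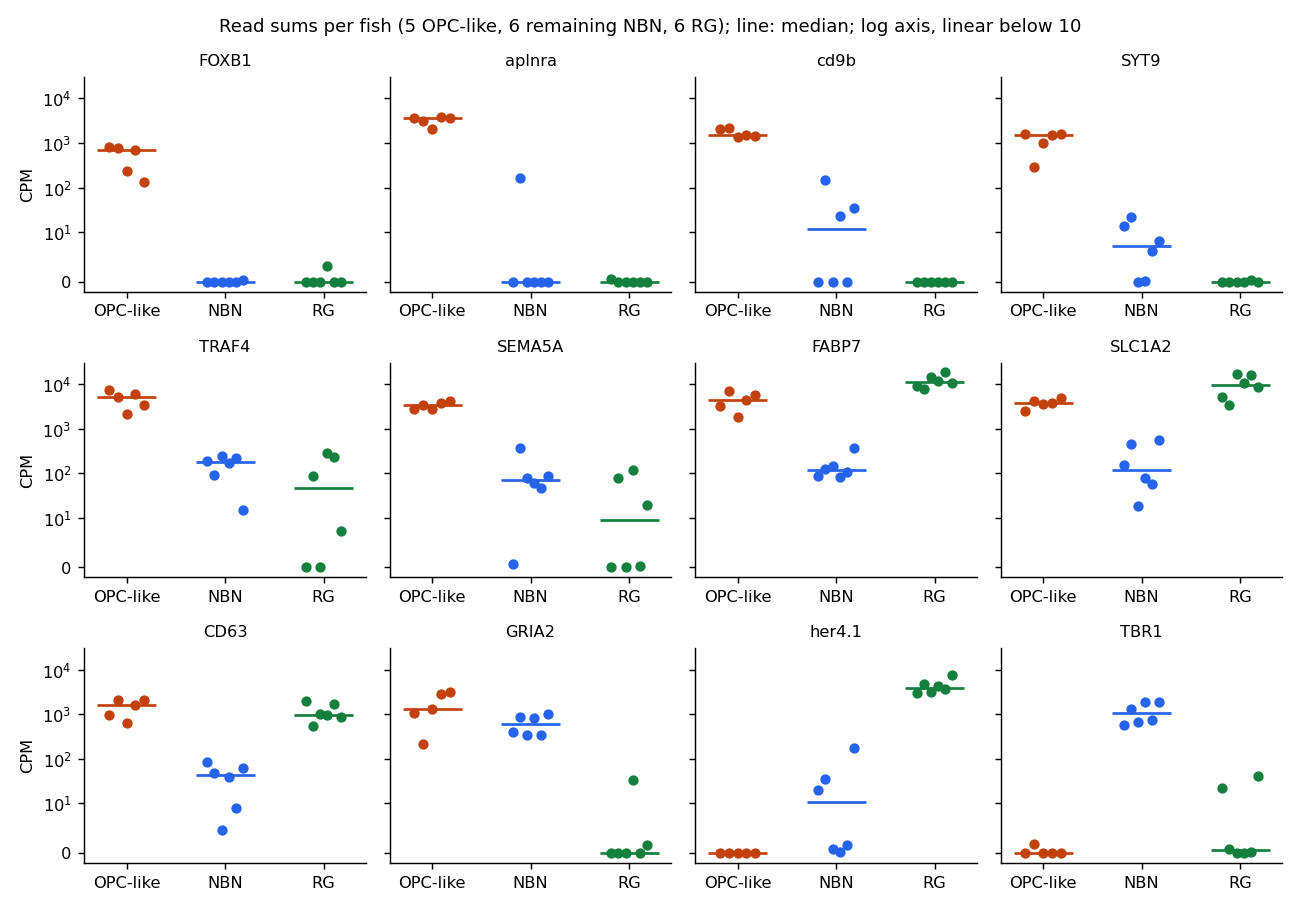
CPM (y axis, log scale, linear below 10) of 12 genes in the read sums of each fish, for OPC-like (5 points), remaining NBN gate (6) and RG gate cells (6), with a line at each median. *FOXB1*, *aplnra*, *cd9b*, *SYT9*, *TRAF4* and *SEMA5A* are high in OPC-like sums alone, while *FABP7* lies between the remaining NBN gate and RG gate levels. *SLC1A2* lies above the remaining NBN gate and overlaps the RG gate.

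Genes shared with glia were also higher than in the remaining NBN gate cells. *FABP7* (ENSDARG00000007697), a fatty acid binding protein of radial glia and glial progenitors, had 3178, 6829, 1861, 4450 and 5555 CPM in the OPC-like sums. The remaining NBN gate sums held 82.1 to 377 CPM and the RG gate sums 7786 to 18154 CPM, with no overlap between any of the groups. *FABP7* was higher than in the remaining NBN gate cells by a log2 fold change of 3.72 ± 0.53 (SE, edgeR adjusted p = 5.3e-05) and lower than in the RG gate cells by −2.47 ± 0.53 (adjusted p = 0.00226). Under RLE scaling the log2 fold change against the RG gate cells was −1.47, and its adjusted p ranged from 0.00016 to 0.166 over alternatives.

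*SLC1A2* (ENSDARG00000102453), a glial glutamate transporter, averaged 3805 ± 897 CPM (SD, n = 5) in OPC-like sums, against 219 ± 227 CPM (n = 6) in remaining NBN gate sums and 9949 ± 5337 CPM (n = 6) in RG gate sums. It was called in both comparisons (3.06 ± 0.64, edgeR adjusted p = 0.0082, and −2.34 ± 0.65, adjusted p = 0.0163), although the OPC-like and RG gate sums overlapped. Under RLE scaling the log2 fold change of *SLC1A2* against the RG gate cells was −1.40, and its adjusted p ranged from 0.000709 to 0.308 over alternatives. *GLUL* (ENSDARG00000099776), glutamine synthetase, was lower than in the RG gate cells by −2.64 ± 0.60 (edgeR adjusted p = 0.00393), and against the remaining NBN gate cells its log2 fold change of 1.3 missed the threshold (adjusted p = 0.0942). *S100B* (ENSDARG00000057598), a calcium binding protein of glia, had 304 ± 138 CPM in OPC-like sums, against 12.7 ± 22 CPM in remaining NBN gate sums. It also missed the threshold (3.25 ± 1.22, edgeR adjusted p = 0.0578), and passed with the fish as a replicate block (adjusted p = 0.0195, range over alternatives 0.00157 to 0.211).

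These were members of a list of 41 radial glia genes, of which 35 were tested. Against the remaining NBN gate cells 3 were higher and 9 lower in OPC-like cells, beside 0.688% and 14.3% of all genes tested. The 3 that were higher are also in the study's table of OPC cluster genes, chosen on these cells. The median log2 fold change was −0.45, beside −1.57 for all genes, and 0.62 under RLE scaling. With the 10 genes at 0 in all OPC-like sums set at their bound of 3 reads, the median was −0.17. With the fish as a replicate block, 7 were higher and 11 lower, and under RLE scaling 4 were higher and 2 lower. Against the RG gate cells 0 were higher and 25 were lower (median −4.64, beside −0.98 for all genes, of which 5.58% were higher and 17.2% lower). Defining radial glia genes were among those not seen in any OPC-like cell: *her4.1*, whose promoter drives mCherry in these fish, *GFAP*, the glial intermediate filament, and *GJA1*, the connexin of gap junctions, had 0 reads in all 12. That allows a detected read in up to 25% of such cells, and a cell without a read may still hold the RNA. *her4.1* had 2948 to 7534 CPM in the RG gate sums, and it was at least 4949-fold lower in OPC-like cells, with the floor set at 3 reads over the group. *GJA1* was at least 3030-fold lower than in the RG gate cells by the same floor. Both bounds count reads and leave out the spread between the 12 cells.

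Of the defining precursor genes outside the rule, several were not seen. *PDGFRA*, *GPR17*, a receptor of committed precursors, and both *SOX8* genes had 0 reads in all 12 cells. *PDGFRA* and *GPR17* were close to absent in the other groups too. *CSPG4* (ENSDARG00000078227) had a read in 4 OPC-like cells and in 0 of the 152 remaining NBN gate and 73 RG gate cells, which allows a detected read in up to 1.97% and 4.11% of such cells. Reads of *SOX6* were in 10 of 12 cells, and of *SOX5*, which like it encodes an SRY-box factor of the lineage, in 7. Neither was called higher than in the remaining NBN gate cells or the RG gate cells, so their reads do not set the OPC-like cells apart. The homeobox factor *NKX2-2* (ENSDARG00000053298) had 859, 0, 0, 707 and 350 CPM in the OPC-like sums, against at most 7.60 CPM in the remaining NBN gate sums (edgeR adjusted p = 0.0505, or 0.0390 with only the 10 cells, range over alternatives 0.0136 to 0.114). The proteoglycan *bcan* (ENSDARG00000099412) had 402, 151, 757, 431 and 1001 CPM, against 0.182 to 97.7 CPM (edgeR adjusted p = 0.0728).

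The list of 29 lineage genes beside those of the rule had 20 tested members. Against the remaining NBN gate cells, 1 was higher and 2 were lower in OPC-like cells, beside 0.688% and 14.3% of all genes tested. The median was 1.24 (2.43 under RLE scaling), beside −1.57 for all genes (−0.59). The member that was higher was *PDGFA* (ENSDARG00000098578), the ligand of Pdgfra. It had reads in 3 of 12 OPC-like cells and was at 0 in the remaining NBN gate cells, and the call was lost with the fish as a replicate block (adjusted p = 0.0519, against 0.0425 without it, both from edgeR, range over alternatives 0.000165 to 0.103). Against the RG gate cells, 2 were higher and 3 lower, beside 5.58% and 17.2% of all genes tested. Those higher were *TNR* (ENSDARG00000020771), a tenascin of the extracellular matrix, by 6.69 ± 2.32 (SE, edgeR adjusted p = 0.0388), and *LHFPL3* (ENSDARG00000021595), a gene that marks these precursors in mouse, by 3.73 ± 1.32 (adjusted p = 0.0404). Reads of *LHFPL3* were in 8 of 12 OPC-like cells, 67 of 152 remaining NBN gate cells, 5 of 73 RG gate cells and 18 of 27 MN gate cells. The members that were lower had 0 reads in all 12 OPC-like cells. These were *PTPRZ1* (ENSDARG00000051814), a receptor phosphatase, and *MYT1* (ENSDARG00000074030), a zinc finger factor, in both comparisons, and *sox13* (ENSDARG00000030297), an SRY-box factor, against the RG gate cells. This *PTPRZ1* gene was read in 10 remaining NBN gate and 37 RG gate cells, *MYT1* in 36 and 2, and *sox13* in 4 and 10. The other gene with the symbol *PTPRZ1* (ENSDARG00000020871) was seen in OPC-like cells. It had 231, 303 and 208 reads in fish 4 cells 1, 3 and 4, 1 and 41 in fish 6 cells 2 and 3, and 0 elsewhere. Per cell, the summed level of the list was 3826 to 6942 CPM in the 9 cells with all 3 rule genes, 141 CPM in fish 2 cell 1, and 1481 and 1561 CPM in the cells with few rule reads, against a median of 1769 CPM in remaining NBN gate cells.

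Of 20 genes of myelin and of differentiating oligodendrocytes, 12 had 0 reads in every OPC-like cell, among them *mbpa* and *MYRF*, the regulator of myelin genes. Of all 32266 genes listed, only 10435 had a read in any of the 12 cells, so a gene at 0 in all of them was common. *mbpb* had 1 read in 1 cell. The summed level of the list was 254 to 1365 CPM in the OPC-like sums, against 471 to 2057 CPM in the remaining NBN gate sums and 263 to 584 CPM in the RG gate sums. Of the 6 tested, 0 were higher and 1 was lower than in either other group, where 14.3% and 17.2% of all genes were lower. With only the 10 cells 3 were lower than in the remaining NBN gate cells and 2 than in the RG gate cells, and under RLE scaling 0 and 1. Of 26 cell cycle genes 21 were at 0 in all 12 cells, *CCND1* and *mki67* among them, and *PCNA*, the polymerase clamp, was seen in 3 cells. The list summed to 0 to 379 CPM in the OPC-like sums, 159 to 387 CPM in the remaining NBN gate sums and 276 to 6774 CPM in the RG gate sums. It was at 0 in 6 of 12 OPC-like cells, 63 of 152 remaining NBN gate cells and 22 of 73 RG gate cells. Against the RG gate cells 8 of the 12 tested cell cycle genes were lower (5 with the fish as a replicate block), beside 17.2% of all genes. Against the remaining NBN gate cells 1 was, beside 14.3%.

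**Figure D3:**
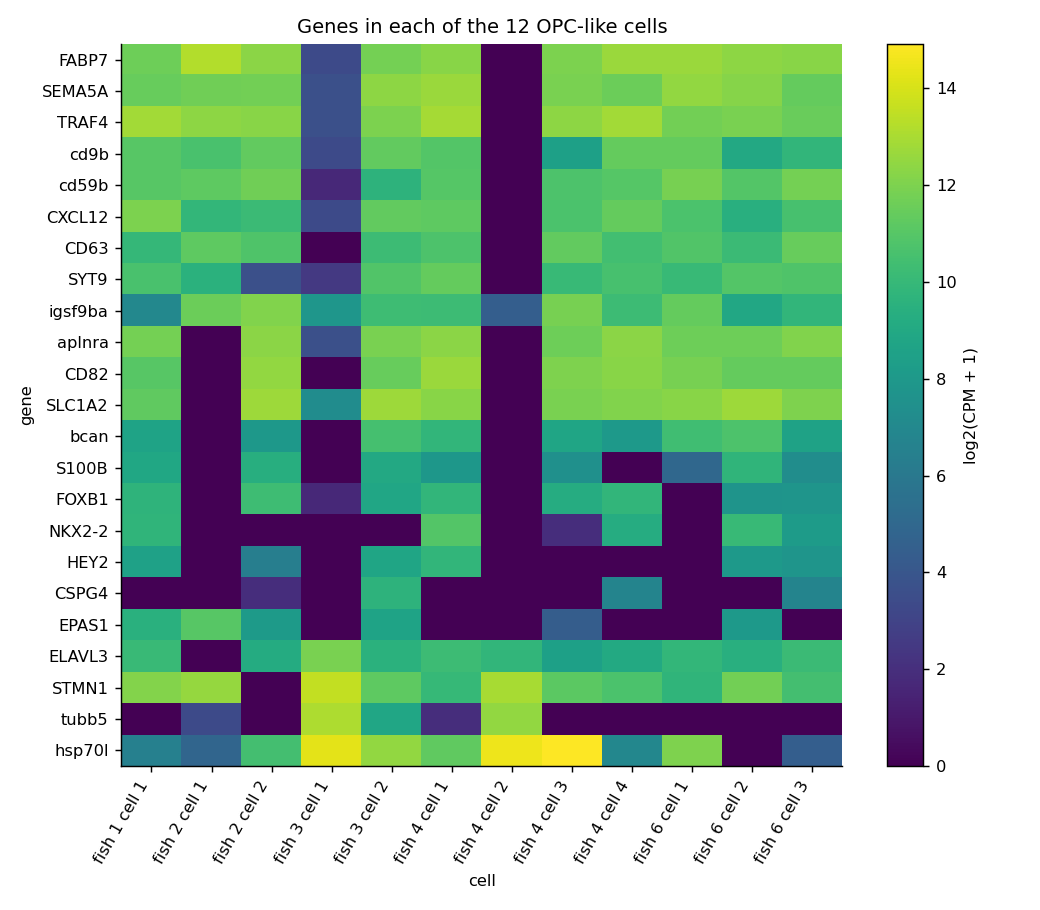
Level of 23 genes, as log2(CPM + 1) in colour, in each of the 12 OPC-like cells (columns). Fish 3 cell 1 and fish 4 cell 2 are dark for most glial and surface genes and bright for *STMN1* and *tubb5*, and fish 2 cell 1 lacks *aplnra*, *CD82* and *SLC1A2*.

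Many neuronal genes were lower than in the remaining NBN gate cells, and some were well above the RG gate. *ELAVL3*, whose promoter drives the GFP of the gate, had a read in 11 of 12 OPC-like cells, 146 of 152 remaining NBN gate cells and 8 of 73 RG gate cells. *STMN1* (ENSDARG00000033655), a microtubule regulator of young neurons, had 4446, 2353, 6956, 2577 and 1658 CPM in the OPC-like sums, against 5534 to 9404 CPM in the remaining NBN gate sums (log2 fold change −2.14 ± 0.54 SE, edgeR adjusted p = 0.0229). *tuba1c* (ENSDARG00000055216), an alpha tubulin, was lower by −3.09 ± 0.75 (adjusted p = 0.0197). With only the 10 cells the log2 fold changes of *STMN1* and *tuba1c* were −2.89 and −4.24, and under RLE scaling −1.11 and −2.07. Over alternatives the adjusted p ranged from 0.000519 to 0.280 for *STMN1* and from 0.000553 to 0.0808 for *tuba1c*. For both genes the OPC-like sum of fish 3 lay within the range of the remaining NBN gate sums. *STMN2* (ENSDARG00000033234) had 159 to 1086 CPM, against 1288 to 1783 CPM (−2.46 ± 0.82, edgeR adjusted p = 0.0452, or 0.0643 in the fit with a replicate block for fish, range over alternatives 0.0065 to 0.229).

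The factors *TBR1* and *EBF3*, known from excitatory forebrain neurons, were lower than in the remaining NBN gate cells. *TBR1* (ENSDARG00000004712) had 1 read in the 12 OPC-like cells together, against 576 to 1885 CPM in the remaining NBN gate sums, where 95 of 152 cells had a read (edgeR adjusted p = 0.000161). *EBF3* (ENSDARG00000100244) also had 1 read, against 138 to 2134 CPM, and 79 of 152 cells (adjusted p = 8.4e-05). *KIF3C* (ENSDARG00000079500), a kinesin, and *NRN1* (ENSDARG00000071860), a membrane protein of neurites, had no read in the 12 cells. With the floor set at 3 reads over the group, they were at least 329-fold and 233-fold lower, a bound on reads that leaves out the spread between cells. By cells, they were read in 56 and 69 of 152 remaining NBN gate cells, and 0 of 12 allows a detected read in up to 25% of OPC-like cells. *NEUROD6* (ENSDARG00000020794), 1 of 2 genes with this symbol and also a factor of excitatory neurons, was read in 2 of 12 OPC-like and 43 of 152 remaining NBN gate cells and did not pass (edgeR adjusted p = 0.469). Of the 42 tested neuronal genes 0 were higher and 13 lower (median −2.74, beside −1.57 for all genes, of which 14.3% were lower). Under RLE scaling 5 were lower, and with the 10 cells of at least 10 rule reads 26 of 41 were. Each of those 10 cells lay below the lower quartile of remaining NBN gate cells in its summed level of the list, with a median of 8467 CPM against 31755 CPM. The 2 cells left out had the highest summed levels of the 12, so the values of the 10 are a description and no further support.

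Against the RG gate cells, 544 genes were higher in OPC-like cells (5.58% of those tested) and 1679 were lower (17.2%). Of the higher genes, 301 were at 0 in all RG gate sums, 232 had reads in at most 2 OPC-like cells and 69 were higher in 5 of 5 fish. Of the lower genes, 1350 were at 0 in all OPC-like sums. With the fish as a replicate block 193 were higher and 636 lower, and with RLE scaling 616 and 720. Without fish 1, 2, 3, 4, 5 or 6 in turn, 339, 275, 315, 386, 420 and 351 genes were higher and 510, 352, 809, 729, 1201 and 520 lower.

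The genes that set OPC-like cells apart from the remaining NBN gate split in this comparison. *cd9b* had reads in 11 of 12 OPC-like cells and was at 0 in all 73 RG gate cells, which allows a detected read in up to 4.11% of such cells. With the floor set at 3 reads over the group it was at least 10639-fold higher in OPC-like cells, a bound on reads that leaves out the spread between cells. *aplnra*, *aplnrb* and *SYT9*, each read in 1 RG gate cell, were higher in OPC-like cells with edgeR adjusted p of 9.0e-05, 0.00493 and 2.1e-05. *cd59b*, *igsf9ba*, *SEMA5A*, *TRAF4* and *FOXB1* were higher than in the RG gate cells too, with log2 fold changes of 7.74, 9.87, 5.46, 4.31 and 8.41 (edgeR adjusted p at most 0.0118). *LRRN1* (ENSDARG00000060115), a leucine-rich repeat membrane protein, had 339 to 1108 CPM in OPC-like sums and 0 in the RG gate, and by the same floor on reads it was at least 4495-fold higher. *CD82* and *CXCL12* did not pass (log2 fold changes 0.66 and 0.46, edgeR adjusted p = 0.791 and 0.881), although every OPC-like sum of both lay above every RG gate sum. The RG gate sums held 579 to 1337 CPM of *CD82* and 376 to 917 CPM of *CXCL12*. For *CD63* the sums of both groups overlapped, at 624 to 2097 CPM in OPC-like cells and 550 to 1927 CPM in the RG gate. *CD81* (ENSDARG00000036080) was lower than in the RG gate by −1.76 ± 0.61 (edgeR adjusted p = 0.0388), a call lost with the fish as a replicate block (adjusted p = 0.116, range over alternatives 0.0262 to 0.501).

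Receptors for glutamate and GABA separated OPC-like cells from RG gate cells. Of 33 genes of these receptors and of inward rectifier channels, 21 were tested, 15 were higher in OPC-like cells and 0 were lower. Of all genes tested, 5.58% were higher and 17.2% lower. The median log2 fold change of the 21 was 8.32, beside −0.98 for all genes. With 7 genes that were at 0 in a group set at their bound of 3 reads the median was 7.2, and with the fish as a replicate block 8 were higher. *GRIA2* (ENSDARG00000052765), an AMPA receptor subunit, had 1057, 216, 1292, 2866 and 3146 CPM in the OPC-like sums, against 0 to 32.9 CPM in the RG gate sums (7.2 ± 1.41 SE, edgeR adjusted p = 0.000963). Its reads were in 10 of 12 OPC-like, 90 of 152 remaining NBN gate and 4 of 73 RG gate cells. *gria4a* (ENSDARG00000037496), another AMPA subunit, had 27.3, 716, 230, 344 and 314 CPM, against at most 1.98 CPM in the RG gate (8.32 ± 2.16, edgeR adjusted p = 0.0108). *GRIN1* (ENSDARG00000027828), the obligatory NMDA receptor subunit, had 0, 768, 847, 651 and 877 CPM, against at most 0.565 CPM (edgeR adjusted p = 1.2e-05). *GABRB2* (ENSDARG00000079586), a GABA-A receptor subunit, had reads in 6 OPC-like cells and 1 RG gate cell (edgeR adjusted p = 0.00148). Against the remaining NBN gate cells 0 of the 21 were higher and 2 lower, beside 0.688% and 14.3% of all genes. The median of −0.06 (0.88 under RLE scaling) stood beside −1.57 for all genes (−0.59).

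*SNAP25* and *SYN2*, which act in synaptic vesicle release, were also higher than in the RG gate cells. *SNAP25* (ENSDARG00000020609), a protein of vesicle fusion, had 1023, 772, 1103, 468 and 895 CPM in the OPC-like sums and at most 1.13 CPM in the RG gate sums (edgeR adjusted p = 5.4e-07). *SYN2* (ENSDARG00000045945), a synapsin, had reads in 9 of 12 OPC-like and 2 of 73 RG gate cells (edgeR adjusted p = 9.9e-05). Neither passed the test against the remaining NBN gate cells, where the adjusted p was 0.238 and 0.941. Of the 42 tested neuronal genes 12 were higher than in the RG gate cells and 4 lower (9 and 1 with the fish as a replicate block). Of all genes tested, 5.58% were higher and 17.2% lower. With the 10 cells 9 of 41 neuronal genes were higher and 10 lower.

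**Figure D4:**
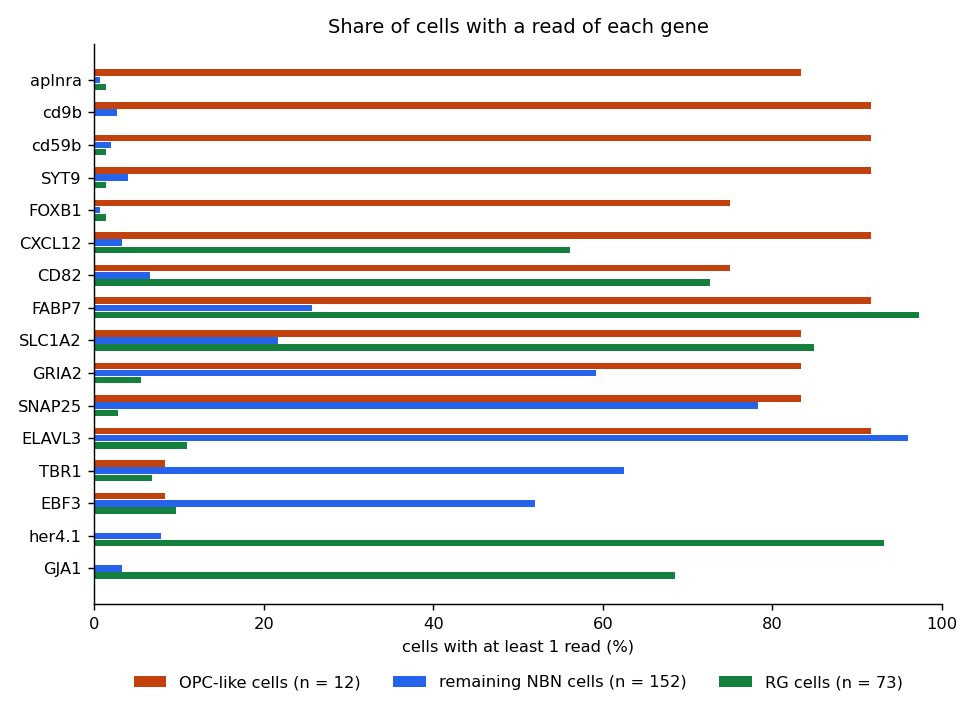
Share of cells with at least 1 read (x axis, percent) of 16 genes in 12 OPC-like, 152 remaining NBN gate and 73 RG gate cells. *aplnra*, *cd9b*, *cd59b*, *SYT9* and *FOXB1* are frequent in OPC-like cells alone, *FABP7* and *SLC1A2* also in RG gate cells, and *GRIA2*, *SNAP25* and *ELAVL3* also in remaining NBN gate cells.

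Genes were also counted by the cells that held them. Counting genes with a read in at least 8 of the 10 cells of at least 10 rule reads and in under 10% of both the remaining NBN gate and the RG gate cells, a cut made after the values were seen, gave 23 genes. *cd59b*, *cd9b*, *si:ch211-132g1.3*, *vamp1a*, a vesicle fusion protein, and *SYT9* were read in all 10, and *aplnra*, *aplnrb* and *DSCAM*, an adhesion molecule, in 9. The MN gate, which the count did not use, held *vamp1a* in 8 of 27 cells and *DSCAM* in 3. The genes that the study tabulated for its own OPC cluster, a list chosen on these cells and so no independent evidence, had 29 tested members of 33. Of these 13 were higher and 1 lower than in the remaining NBN gate cells, beside 0.688% and 14.3% of all genes. Against the RG gate cells 15 were higher and 3 lower, beside 5.58% and 17.2%.

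Genes of the dissociation and stress response, which cells turn on when tissue is dissociated, and genes of ribosomal proteins also differed. In the OPC-like sums the stress list came to 546 to 38595 CPM, against 33978 to 63257 CPM in the remaining NBN gate and 31178 to 95726 CPM in the RG gate, and it was lower in 5 of 5 fish than in either. Of 24 tested stress genes 15 were lower than in the remaining NBN gate cells (1 under RLE scaling) and 17 lower than in the RG gate cells (11). Of all genes tested, 14.3% and 17.2% were lower. The heat shock gene *hsp70l* (ENSDARG00000055723) was lower by −2.41 ± 0.66 (SE, edgeR adjusted p = 0.0377) and −2.11 ± 0.65 (adjusted p = 0.0253) in that order of groups. Per cell, 9 of the 10 cells lay below the lower quartile of the remaining NBN gate, of 21521 CPM, and fish 4 cell 3 was at 84885 CPM.

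The ribosomal list came to 12238 to 68760 CPM in the OPC-like sums, against 22403 to 99531 CPM in the remaining NBN gate sums and 71389 to 179223 CPM in the RG gate sums, again lower in 5 of 5 fish. Against the remaining NBN gate cells 28 of 81 were lower, 70 with the 10 cells and 0 under RLE scaling, and against the RG gate cells 69 were lower (22 under RLE scaling). Of all genes tested, 14.3% and 17.2% were lower. The 10 cells had a median of 17124 CPM, the remaining NBN gate cells of 51069 CPM and the RG gate cells of 93590 CPM. Whether the share of reads taken by these lists bears on the other fold changes was not tested.

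**Figure D5:**
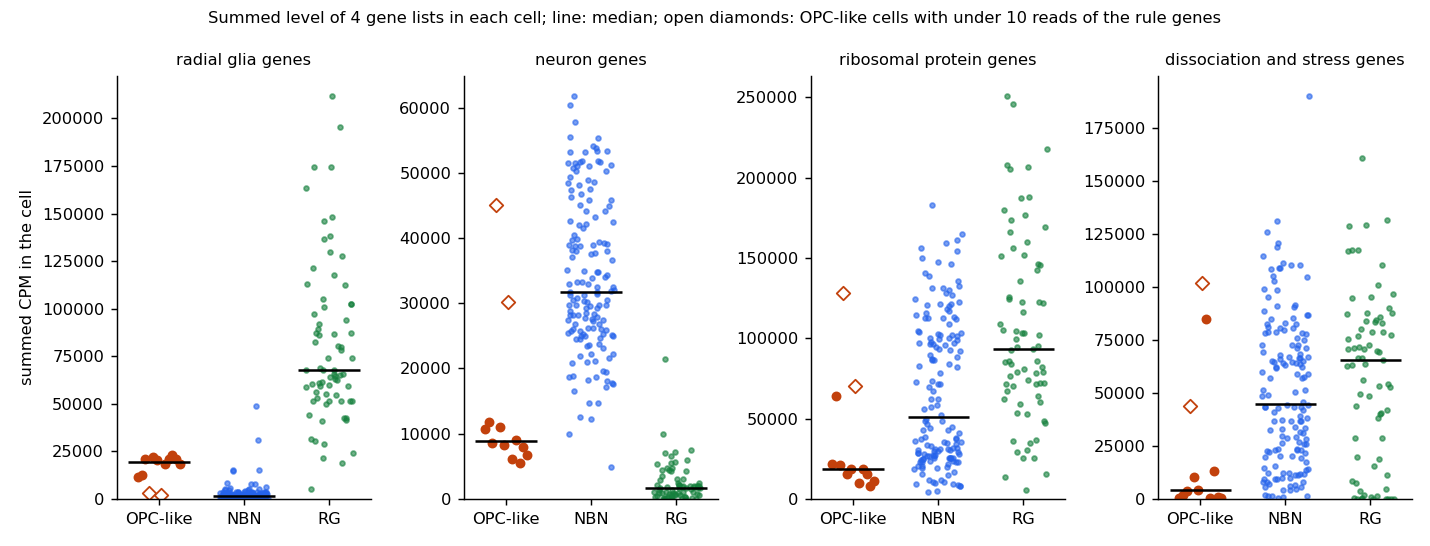
Summed CPM (y axis) of 4 gene lists in each OPC-like, remaining NBN gate and RG gate cell, with a line at the median and open diamonds for the OPC-like cells with under 10 rule reads. The 10 filled OPC-like points lie between the medians of the other groups for radial glia genes (11730 to 22980 CPM) and for neuronal genes, and the diamonds lie with the remaining NBN gate cells.

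Markers of other cells were checked in the same sums. All 15 microglia and leukocyte genes were at 0 in every OPC-like cell, as they were in 130 of 152 remaining NBN gate cells and 59 of 73 RG gate cells. Of 22 genes of endothelium and mural cells 16 were at 0, and the rest summed to 0 to 146 CPM per fish, against 14.9 to 88.3 CPM in the remaining NBN gate and 33.8 to 487 CPM in the RG gate. Of 8 erythrocyte genes 7 were at 0, and of 9 ependymal genes 8 were, the ependymal sum reaching 709 CPM in 1 fish. The erythrocyte list was at 0 in 149 of 152 remaining NBN gate cells and all 73 RG gate cells, and the ependymal list in 131 and 42. Zeros in these lists were thus common outside the OPC-like cells too.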

How the data were processed

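Single cells were sequenced with SMART-seq2, a full-length protocol without molecular identifiers, so reads are not independent molecules, and intervals and floors cover counting error only. Per the submitters' processing notes and the study's methods, the authors aligned reads to GRCz10 with GSNAP 2017-08-15, counted them on Ensembl 87 genes with featureCounts 1.5.3, and deposited raw counts of 32266 genes in 370 cells, unfiltered and not normalized. Of the identifiers 26433 had a symbol, and symbols in capitals are those of the human orthologue. Near-identical paralogues may share reads.

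Cells were kept with log10 reads above 4.5, log10 genes with more than 1 read of 2.7 to 3.9, under 50% of reads in the top 50 genes and under 20% in 13 mitochondrial genes. Counts were summed per fish and group and tested with edgeR 4.0.16 (quasi-likelihood, TMM, filterByExpr, all 3 groups in 1 fit, adjusted p of 0.05) in R 4.3.3. DESeq2 1.42.0 and limma 3.58.1 served alternatives, and Python 3.11.15 the rest. Levels are in CPM, reads out of every 1000000 of a sum or cell. The edgeR fit was tried on simulated data, and the permutation test and the alternative fits were not. Fish numbers come from the titles, and the batch without numbers was taken as fish 6. The deposited fish label has 4 values that disagree with these numbers, and served as an alternative. Cells of a fish share an animal, so the groups are paired: with the group means removed, r over 2000 genes between OPC-like sums and sums of the same fish was −0.010, 0.018, 0.141, 0.031 and 0.145 for the remaining NBN gate and −0.015, 0.026, −0.003, 0.044 and 0.051 for the RG gate (fish 1, 2, 3, 4 and 6). The study's methods use no block, but they compared single cells and not sums per fish. The main fit did not use the pairing, and the fit with the fish as a replicate block was an alternative. Cells of a fish are not replicates, and p-values measure the spread between sums of different fish. The OPC-like sums held 1 to 4 cells, so in them differences between fish and between single cells cannot be told apart.

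The members, the gene lists and the tests were chosen with earlier results of these data known. Genes were named by a rule: the 12 largest changes in each direction with an adjusted p under 0.05, a mean of 20 CPM or more and no fish going the other way, up to 6 called members per list and direction, and lineage genes whatever their result. Not all are printed, and some genes are not reported here. Of the genes asked for by name, 18 were not found. Sequences were not used here.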

Additional observations from a re-analysis of the deposited data

Results flagged for a closer look

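By Dixon's criterion, 4 of 60 sets of values per fish had a fish far from the others, at a level where chance picks about 1 set in 20. The sets were the share of OPC-like cells, their differences in depth and quality, and a part of the named genes in OPC-like sums. Sums of the remaining NBN gate and the RG gate were not examined in this way. All 4 were genes in the 5 OPC-like sums. The heat shock gene *HSP90AA1* (ENSDARG00000024746) had 7716 CPM in fish 4, against 6.82 to 1293 CPM in the other fish. The NMDA receptor subunit *GRIN1* (ENSDARG00000027828) was at 0 CPM in fish 1, whose sum is 1 cell, against 651 to 877 CPM elsewhere. The forebrain neuron factor *TBR1* was at 1.80 CPM in fish 2 and *EBF3* at 0.755 CPM in fish 4, each from 1 read, and both were at 0 in the other OPC-like sums.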

How the results depend on the processing

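The counts of called genes moved with the processing. None of the called genes followed through the alternatives, which are not all of those named, reversed under any of them. Genes higher and lower than in the remaining NBN gate cells numbered 67 and 1393 as reported, 184 and 1254 with DESeq2, 33 and 37 with RLE scaling, 58 and 406 without the filter on low counts, 19 and 129 with sums of at least 2 cells, 89 and 512 with cells thinned to 30000 reads, 35 and 1205 with only these 2 groups in the fit, 134 and 3018 with limma voom, 14 and 194 with the 4 values of the deposited fish label in place of the fish numbers, 76 and 2457 with cells of all 3 rule genes, 77 and 2227 with at least 10 reads of 2 rule genes, and 127 and 1218 without remaining NBN gate cells that had a rule gene. Against the RG gate cells, 544 and 1679 genes became 738 and 1386 with DESeq2, 616 and 720 with RLE scaling, 427 and 756 without the filter, 499 and 703 with sums of at least 2 cells, 363 and 802 thinned, 53 and 477 with 2 groups, 200 and 723 with voom, 305 and 945 with the fish label, 494 and 2225 with all 3 genes and 526 and 1826 with 10 reads. The causes were not tested. Leaving out 1 fish at a time gave 7 to 23 higher and 44 to 288 lower against the remaining NBN gate cells, and 275 to 420 and 352 to 1201 against the RG gate cells. With the fish as a replicate block, a paired fit, the counts were 50 and 1286 and then 193 and 636. Among the genes followed and printed, only some of the calls that changed are marked beside their values. Against the remaining NBN gate cells, *cd9b* and *HEY2* passed under 8 of 18 alternatives, and *SEMA5A* and *EPAS1* under 10. *MKX*, *STMN1* and *hsp70l* passed under 11 of 18, and *TRAF4* under 12. Against the RG gate cells, *LHFPL3* passed under 7 of 17 and *TNR* under 8 of 16. Of 35 called genes followed through the alternatives against the remaining NBN gate cells, 5 (*FOXB1*, *FABP7*, *CD63*, *TBR1* and *EBF3*) passed under every alternative that gave a value, and of 31 against the RG gate cells 18 did. Each OPC-like sum held 1 to 4 cells, and 2029 of the 9743 genes tested were at 0 in all 5.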

Other observations

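Outside the gate of the OPC-like cells, the RG gate cell of fish 4 with 362 *olig2* and 103 *sox10* reads would have met the rule on genes. It had 1975 reads of *CD82*, 3991 of *FABP7*, 1026 of *TRAF4*, 633 of *SEMA5A* and 136 of *cd59b*, and 0 of *aplnra*, *aplnrb* and *cd9b*. The other RG gate cell of fish 4, with 359 *olig2* reads, had 13306 reads of *FABP7* and 10362 of *SLC1A2*, and 0 of *TRAF4*, *SEMA5A*, *aplnra* and *cd9b*.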
